A study of Oryctolagus cuniculus with 4 samples.

Results

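The genes described here are 3 collagen genes of the rabbit, COL1A2, COL2A1 and COL8A1. They were taken as all probes whose listed transcript is a RefSeq transcript of one of these genes, which gave 18 of the 43603 probes on the array and 3 of 1489 genes that could be named. COL1A2 (NM_001195668) had 11 probes, COL2A1 (NM_001195671) had 6 and COL8A1 (NM_001082666) had 1. Of a list of 44 collagen genes these 3 were the ones with a RefSeq name here, so other chains, COL1A1 and COL3A1 among them, are not reported.

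Ligamentum flavum, the elastic ligament between neighbouring vertebral arches, was taken from male rabbits aged 34 weeks, and every sample is labelled as 16 weeks after surgery. Surgery at 18 weeks of age removed the supraspinal muscle at L3-4 and fused its neighbours L2-3 and L4-5 from the posterolateral side with instruments. Of the 4 groups, the ISC group is L3/4 of this model, the level of intervertebral stress concentration, and the fused group is L2/3 and L4/5. The other two groups are controls, called the L3/4 control and, for L2/3 with L4/5, the adjacent-level control. Whether the controls had surgery, and whether animals or levels were pooled, is not given in the labels used here. Each group is 1 array, so no value has a biological error or a test. What stress, muscle resection and instruments each contribute cannot be told apart.

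Collagens are proteins of 3 chains wound into a triple helix. COL1A2 encodes the alpha-2 chain of type I collagen, the main fibril collagen of tendon, ligament and bone. COL2A1 encodes the chain of type II collagen, the fibril collagen of cartilage, which is also found where ligament meets bone. COL8A1 encodes a chain of type VIII collagen, a short network-forming collagen known from vessel walls and from tissue under remodelling.

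Single-colour intensities are given below as the processed signal of a spot and as log2 of that signal minus the array's 75th percentile, called the scaled level. Differences between arrays are differences of scaled levels, so 1 is a 2-fold difference. Feature Extraction's own error estimate for a bright spot was 0.144 on the log2 scale, which gives 0.20 for a difference between arrays. This is an error of reading a spot and says nothing of animals. A probe counts as measured when it was well above background on both arrays compared. Probes of 1 gene read the same RNA and are not replicates of a condition, and levels of different probes are not compared.

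The 4 arrays had 75th percentiles between 53.4 and 93.7 in processed signal, lowest in the L3/4 control, and between 59.6% and 67.9% of probes well above background. All 18 collagen probes but 1 were well above background on all 4 arrays. The dim one, a COL2A1 probe, was well above background at the ISC level only. TNMD, tenomodulin, the 1 named marker of tendon and ligament cells, had scaled levels of −2.03 at the ISC level, −1.94 in the L3/4 control and −1.88 in the adjacent-level control. In the fused array it did not stand well above background, so the labelled tissue could not be checked there by this marker.

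**Figure D1:**
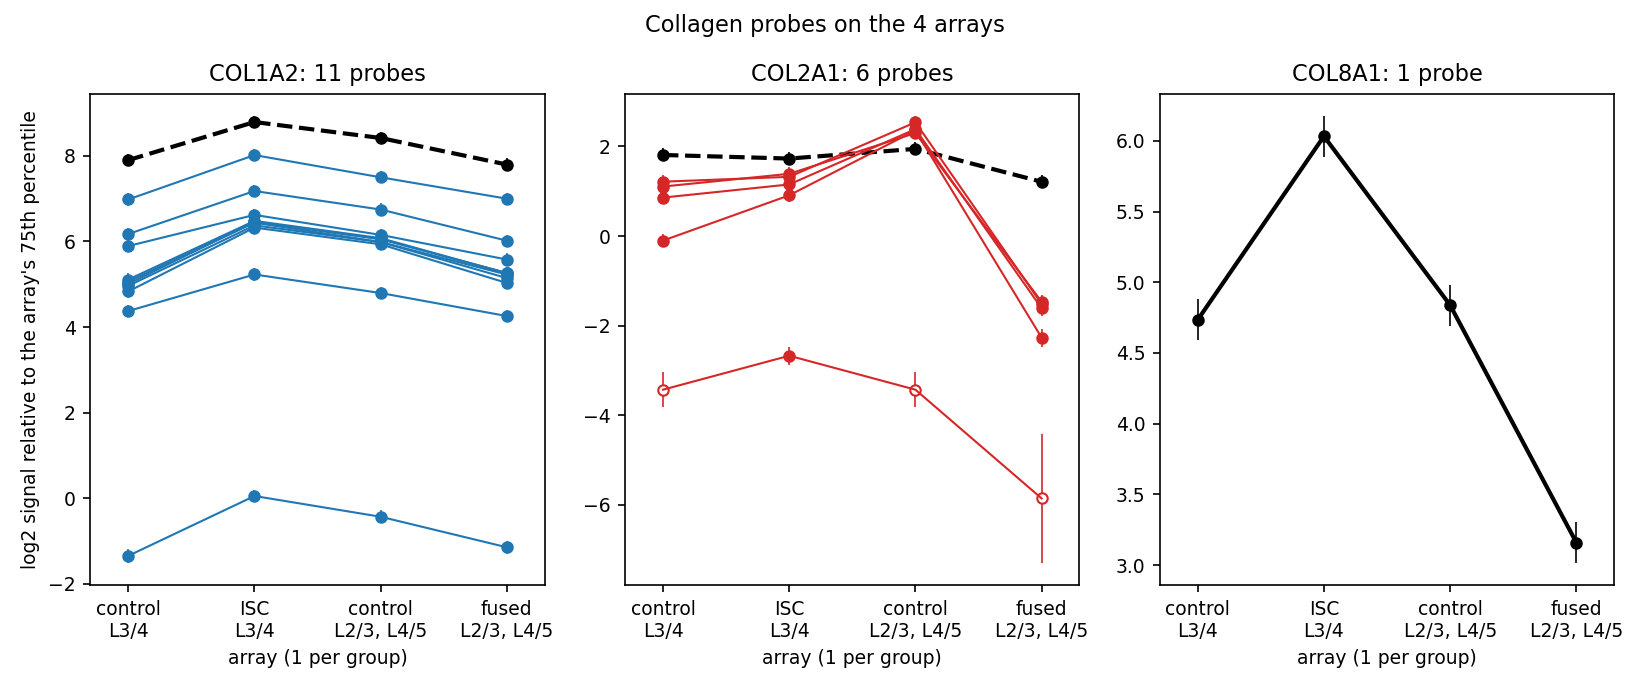
Scaled level (log2 signal minus the array's 75th percentile, y axis, with a separate scale per gene) of each collagen probe on the 4 arrays (x axis). Lines join 1 probe across arrays, bars are Feature Extraction's error estimate, open points were not well above background, and black marks the brightest probe of each gene. All 11 COL1A2 probes and the COL8A1 probe were highest at the ISC level, and 4 of the 5 measured COL2A1 probes fell steeply from the adjacent-level control to the fused levels while the brightest stayed between 1.21 and 1.95.

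All 11 probes put COL1A2 higher at the ISC level than in the L3/4 control, and all 11 put the fused levels below the adjacent-level control. Its brightest probe, A_04_P005106, had processed signals of 41508 at the ISC level, 12759 in the L3/4 control, 18981 at the fused levels and 24842 in the adjacent-level control. The scaled levels of this probe were 8.79, 7.90, 7.80 and 8.42 in the same order. The ISC array was thus the highest and the adjacent-level control the second highest, and this order of the upper pair held for all 11 probes. The 2 lower arrays, the L3/4 control and the fused levels, changed places between probes. The L3/4 control was lowest by 7 probes and the fused levels by 4.

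The size of the COL1A2 difference at the ISC level depended on the probe. The brightest probe differed from the L3/4 control by 0.89, under 2-fold. Over the 11 probes the difference ran from 0.73 to 1.49, with a median of 1.37, a 2.58-fold higher signal. At least 2-fold higher were 8 of 11 probes, beside 9.98% of all measured probes and 9.09% of all measured genes or transcripts in that comparison. The 8 probes share 1 transcript, so they are not 8 separate findings.

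The 11 probes fell into a lower group of 5, between 0.73 and 1.04, and an upper group of 6, between 1.37 and 1.49, a split made after the values were seen. The lower group held the 4 probes numbered A_04_P005106 to A_04_P005109 together with A_04_P029967. The upper group held A_04_P033287 and the 5 probes from A_04_P033292 to A_04_P033296. A_04_P033287 was dim, with processed signals of 21.1 to 97.4, and the others of the upper group read 1522 or more on every array.

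The split was widest where the L3/4 control was one of the arrays, with a gap of 0.33 in this comparison and 0.34 between the controls. Against the other control the same 11 probes put the ISC level higher by 0.37 to 0.52, with a standard deviation over probes of 0.045, compared with 0.28 against the L3/4 control. Between the controls, COL1A2 was lower at L3/4 by all 11 probes, with differences from −1.10 to −0.26 and the same 5 and 6 probes on either side of the gap. The ISC level minus the fused levels, without that array, had a standard deviation of 0.11. Over all transcripts with several probes, the median standard deviation between probes was 0.20 in each of the 3 comparisons that use the L3/4 control. It was 0.15 to 0.16 in the 3 that do not. The cause of the split was not tested.

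At the fused levels COL1A2 differed from the adjacent-level control by −0.62 for the brightest probe and by −0.90 to −0.50 over the 11 probes. No probe was 2-fold lower, beside 9.16% of all measured probes. Set against the L3/4 control, the fused levels ran from −0.32 to 0.25 with 7 of 11 probes above 0, so the direction at the fused levels depended on the control array. The 2 surgery-model arrays share no control and were also set side by side directly. They are of different spinal levels, so here and below this comparison cannot tell level from condition. The controls of these levels were themselves apart in COL1A2. The ISC level was higher than the fused levels by 0.97 to 1.29, with a median of 1.19, and 9 of 11 probes were at least 2-fold higher, beside 7.53% of measured probes.

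COL2A1 had its lowest scaled level at the fused levels and its highest in the adjacent-level control by all 5 probes measured on every array. The probe A_04_P016692 had processed signals of 234.2 at the ISC level, 124 in the L3/4 control, 29.8 at the fused levels and 422 in the adjacent-level control. A_04_P016691 read 245, 115, 30.8 and 358, and A_04_P016693 read 208, 96.7, 27.9 and 379 in the same order. These 3 probes gave nearly parallel profiles, with the fused array far below the rest. A_04_P004466 read 176, 49.7, 17.7 and 372, with the same order of arrays and a lower L3/4 control.

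The brightest COL2A1 probe, A_04_P013201, had a flatter profile. Its processed signals were 311 at the ISC level, 187 in the L3/4 control, 197 at the fused levels and 279.8 in the adjacent-level control, which are scaled levels of 1.73, 1.81, 1.21 and 1.95. By scaled level the fused array was the lowest here as well, but its distance from the others was far smaller. The sixth probe, A_04_P013186, was well above background at the ISC level only. Its signal there was at least 1.39-fold that in the L3/4 control, at least 1.46-fold that in the other control and at least 1.93-fold that at the fused levels. In each bound the dim side is taken as the other array's dimmest probe with every spot well above background, or as this probe's own value there if that was higher.

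Against the adjacent-level control, the fused levels differed in COL2A1 by −4.63 to −3.77 for 4 probes and by −0.73 for the brightest. The median over the 5 probes was −4.00, a 16.0-fold lower signal, and the mean of the 4 without the brightest was −4.11. At least 8-fold lower were 4 of 5 probes, beside 0.511% of all measured probes and 0.51% of measured genes or transcripts. These 4 read only 17.7 to 30.8 on the fused array, so the size depended on how background was handled. After normexp background correction the 5 probes ran from −2.60 to −0.56, and none was 8-fold lower. A gene represented by its brightest probe alone would show COL2A1 under 2-fold lower. The gap of 3.03 between that probe and the nearest of the others was well beyond the 0.20 error of a difference. Among 433 named transcripts with several probes in this comparison, 9 had probes more than 2 apart on the log2 scale, 2.08%, COL2A1 among them. Which probe reads the COL2A1 transcript more faithfully was not tested, and probe sequences were not used here.

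The direction at the fused levels did not depend on the control array. Against the L3/4 control, COL2A1 was lower by all 5 probes, with −2.73 to −2.17 for 4 of them and −0.60 for the brightest. Against the ISC level it was lower too: the ISC array was higher by 2.76 to 3.18 for the 4 probes and by 0.52 for the brightest. At least 8-fold is a difference of 3, which 1 of the 5 probes reached here, beside 0.0969% of measured probes. After normexp none did, the highest being 1.70. The 3 comparisons share the fused array, so they are not independent of each other.

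At the ISC level COL2A1 lay between the controls by 4 of 5 probes, and just below both by the brightest. Compared with the L3/4 control, its probes ran from −0.08 to 1.01 with a median of 0.28, and 1 of 5 was at least 2-fold higher. The brightest probe was the one below 0, and it lay at 0.045 with the authors' scaling and at 0.22 after normexp, so its sign was not settled. Compared with the other control, all 5 were lower, from −1.45 to −0.22, and 3 of 5 were at least 2-fold lower, beside 4.95% of measured probes. The controls themselves differed, L3/4 being lower by 1.19 to 2.46 for 4 probes and by 0.14 for the brightest. At least 2-fold lower were 4 of 5 probes, beside 9.71% of measured probes. The direction for COL2A1 at the ISC level therefore rested on which control was used.

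COL8A1 had the same order of arrays as the brightest COL1A2 probe and a wider spread. Its 1 probe, A_04_P001586, had processed signals of 6137 at the ISC level, 1421 in the L3/4 control, 763 at the fused levels and 2078 in the adjacent-level control. The scaled levels were 6.03, 4.73, 3.16 and 4.84. The ISC array stood above both controls and the fused array below both, while the controls differed by −0.10, less than the 0.20 error of a difference. That depended on the scaling. The controls differed by −0.36 with quantile normalization, −0.45 with cyclic loess and −0.31 with normexp. They differed by −0.10 when centred on the median of measured probes and by −0.20 with the authors' scaling. With 1 probe, there is no second reading of this gene.

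The ISC level was higher in COL8A1 than the L3/4 control by 1.30, a 2.46-fold difference, beside 9.09% of genes or transcripts at least 2-fold higher. It was higher than the other control by 1.19, where 3.54% were at least 2-fold higher. The fused levels were lower than the adjacent-level control by 3.20-fold, a difference of −1.68, beside 9.15% at least 2-fold lower. They differed from the L3/4 control by −1.58, beside 13% at least 2-fold lower. Of the 3 genes, COL8A1 was the one at least 2-fold apart from both controls at both places. The ISC level exceeded the fused levels by 2.87, a 7.33-fold difference, and 6.99% of genes or transcripts were at least 2-fold higher there.

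**Figure D2:**
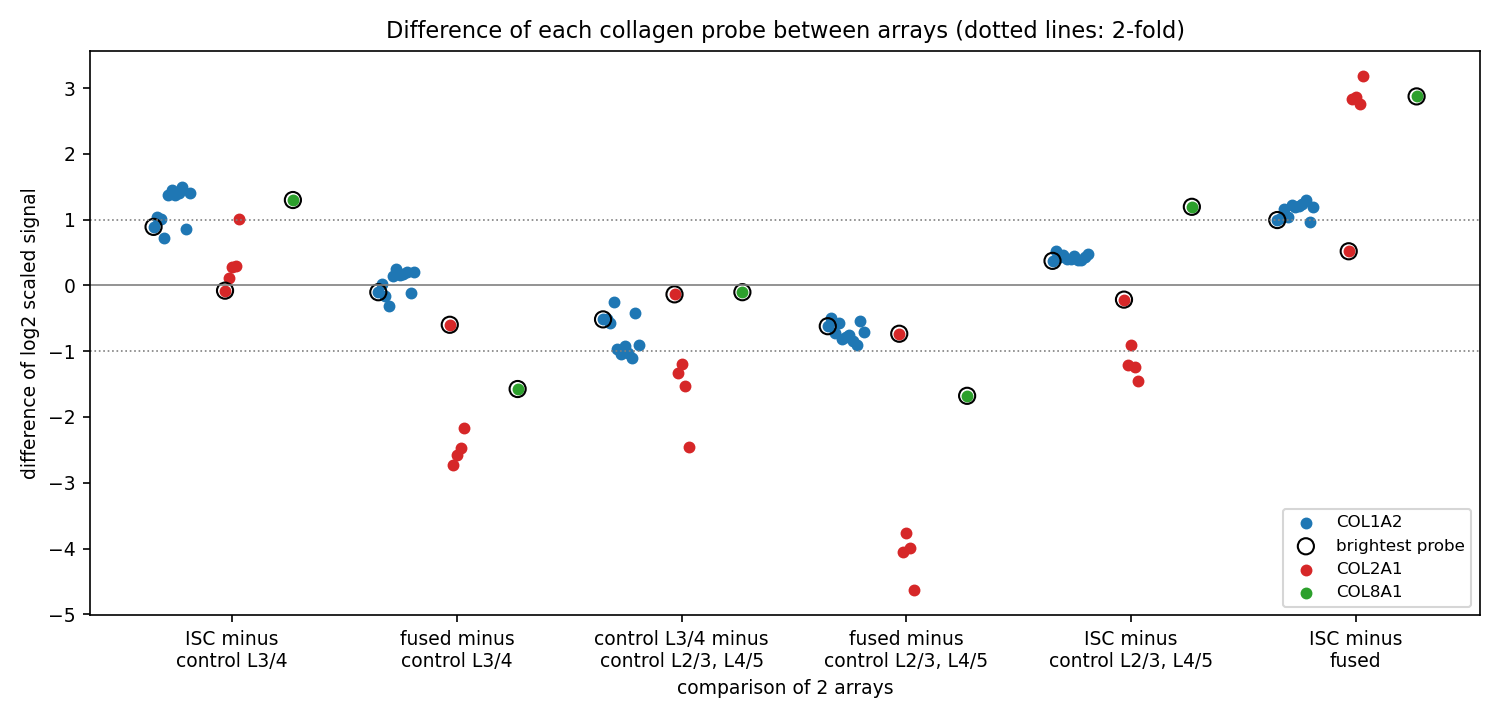
Difference of scaled level (log2, y axis) between 2 arrays for each measured probe, for 6 pairs of arrays (x axis); dotted lines mark 2-fold and rings the brightest probe of a gene. COL1A2 probes spread from 0.73 to 1.49 for the ISC level against the L3/4 control and from 0.37 to 0.52 against the other control, and the 4 COL2A1 probes other than the brightest lie between −4.63 and −3.77 for the fused levels against the adjacent-level control.

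Set beside each other, the 3 genes did not change equally. In the fused array, against the control of the same levels, the median over probes was −4.00 for COL2A1, −1.68 for COL8A1 and −0.73 for COL1A2, beside a median of −0.14 over all measured genes or transcripts. At the ISC level, against the L3/4 control, it was 0.28 for COL2A1, 1.30 for COL8A1 and 1.37 for COL1A2, beside −0.16 over all. By the brightest probe, 1 of the 3 genes, COL8A1, was past 2-fold at the ISC level, upward, and the same 1 of 3 at the fused levels, downward. By that probe the fused differences were −0.73 for COL2A1, −1.68 for COL8A1 and −0.62 for COL1A2. Which gene differed most there thus depended on the probe. Taking the mean over a gene's probes, 2 of 3 were higher at the ISC level, with COL1A2 at 1.18. By the same mean 2 of 3 were lower at the fused levels, with COL2A1 at −3.44.

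These differences are of bulk tissue, in which fewer cells of a type and less RNA per cell cannot be told apart. Signals of other cell types moved with the arrays. Over the 19 named skeletal muscle genes the signal summed to 965, in units of the array's 75th percentile, in the adjacent-level control, where 17 were well above background. It summed to between 18.1 and 42.6 on the other arrays, with 14 to 16 above background, so the array with the highest COL2A1 was also the one with the most muscle signal. Over the 7 named neutrophil genes it summed to 316 at the fused levels and to 6.82 to 14.5 elsewhere, with all 7 above background on every array. The 2 haemoglobin genes summed to 1152 at the fused levels and to 272 to 780 elsewhere. The 4 adipocyte genes summed to 20.0 at the fused levels and to 4.97 to 7.83 elsewhere. The part of these cells in the collagen differences was not tested. Against the L3/4 control, the fused levels differed by −1.58 in COL8A1, by a median of −2.47 in COL2A1 and by a median of 0.15 in COL1A2. That control is of another spinal level and differs in other markers as well, so it does not test the part of muscle.

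The smaller lists moved as follows. The 5 smooth muscle genes, all above background on every array, summed to 66.7 in the L3/4 control and to 27.0 to 38.7 elsewhere. The endothelial pair, SOX17 and KDR, summed to 0.81 in the L3/4 control and to 0.20 to 0.24 elsewhere, with KDR too dim to stand above background in the fused array and in the adjacent-level control. The L3/4 control, lowest in COL1A2 by 7 of 11 probes, held the most signal of both lists. The fused array, lowest by the other 4, was at 38.7 and 0.23, and the part of these cells in COL1A2 was not tested. The 3 macrophage and T cell genes summed to 2.56 at the fused levels and 1.28 to 1.496 elsewhere, with CD3E not well above background in the adjacent-level control. That sum mostly followed CD14, at a scaled level of 1.05 at the fused levels and −0.51 to 0.20 elsewhere. CD4 was at −1.43 at the fused levels, −1.43 in the L3/4 control and −1.35 in the adjacent-level control. The list as a whole was thus not raised there. SPP1, the 1 named osteoblast marker, was at 9.06 at the fused levels and 14.0 to 20.1 elsewhere, and CNMD, chondromodulin, the 1 named chondrocyte marker, at 0.12 and 0.21 to 0.25.

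**Figure D3:**
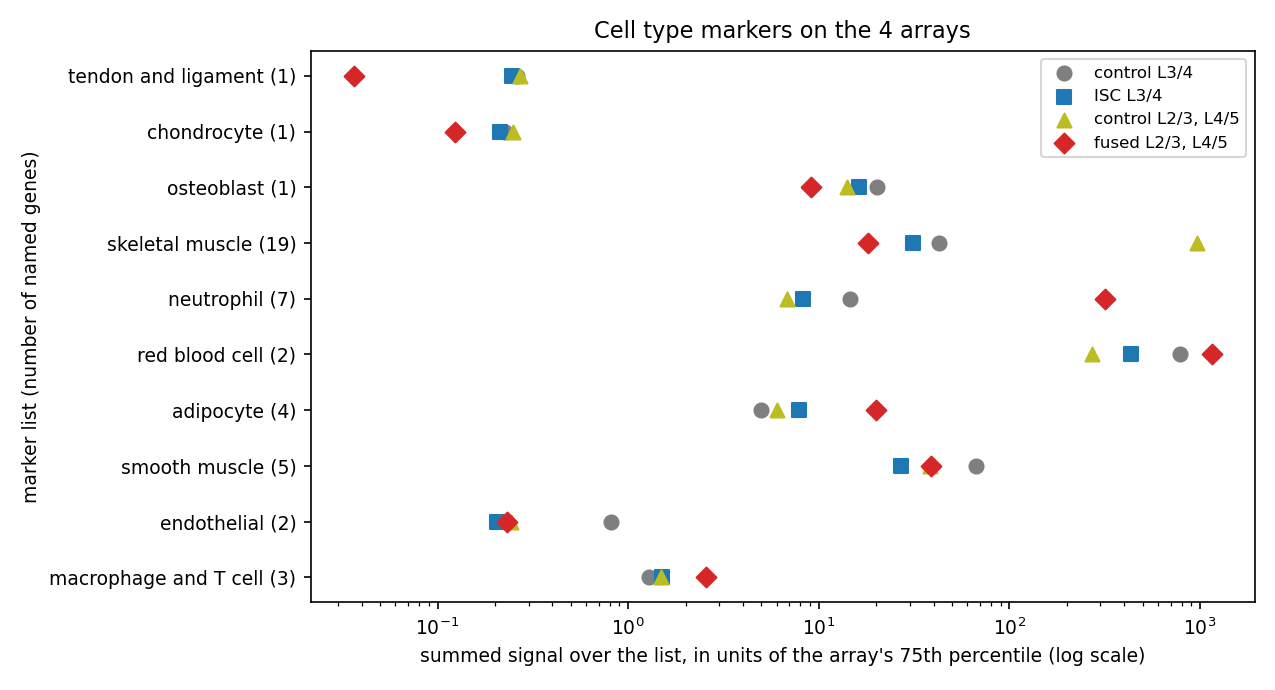
Signal summed over the named genes of each marker list (x axis, log scale, in units of the array's 75th percentile) for the 4 arrays (symbols); the number of named genes stands beside each list. Skeletal muscle signal reached 965 in the adjacent-level control and neutrophil signal 316 at the fused levels, while the tendon and chondrocyte rows, each of 1 gene, were lowest at the fused levels.

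Genes that make, modify and fold collagen chains were measured by 4 named genes of a list of 38. None was at least 2-fold from the L3/4 control at the ISC level. At the fused levels 1 of 4 was at least 2-fold lower, beside 9.15% of all genes or transcripts, and the list had a median of −0.79. P4HB, the beta subunit of prolyl 4-hydroxylase, which hydroxylates collagen prolines, was at −1.18. P3H4, a partner of the lysine-hydroxylating complex, was at −0.99. PDIA3, a disulphide isomerase, was at −0.58 and CALR, the chaperone calreticulin, at 0.02. With the L3/4 control instead, the fused array gave −0.64 for P4HB, −0.56 for P3H4, −0.44 for PDIA3 and −0.29 for CALR. None of the 4 then passed 2-fold, and the list median was −0.50. The 2-fold call for P4HB thus depended on the control array. At the ISC level the same genes were at −0.40 for P4HB, 0.26 for P3H4, 0.67 for PDIA3 and 0.13 for CALR.

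Of a list of 33 proteins associated with collagen fibrils, 4 were named and measured, all of them proteoglycans. By their brightest probes, 2 of 4, BGN and LUM, were past 2-fold lower in the fused array, beside 9.15% of all genes or transcripts. At the ISC level 1 of 4, BGN, was at least 2-fold higher, beside 9.09%. BGN, biglycan, had scaled levels of 5.77 at the ISC level, 4.50 in the L3/4 control, 3.55 at the fused levels and 5.63 in the adjacent-level control. The fused array was the lowest, and the ISC level differed from the adjacent-level control by 0.15. The second BGN probe put the ISC level only 0.47 above the L3/4 control, where the brightest gave 1.27, so that call rested on 1 probe. Both probes put the fused levels past 2-fold below the adjacent-level control, at −2.12 and −2.07. Against the L3/4 control BGN was at −0.95 by its brightest probe and −1.90 by the other. With that control 1 of 4, LUM at −1.21, was past 2-fold lower by the brightest probe, beside 13% of all genes or transcripts. DCN, decorin, was at 0.07 at the fused levels by its brightest probe and ran from −0.18 to 0.91 over its 6 probes. For the ISC level it was at −0.23 and ran from −1.40 to −0.23. OGN, osteoglycin, was at 0.18 at the fused levels and ran from 0.18 to 1.45 over its 5 probes. For the ISC level it was at −0.60 and ran from −1.01 to −0.60. LUM was at −0.57 at the ISC level and ran from −1.02 to −0.57 over its 4 probes. Other probes of DCN, of OGN and, at the ISC level, of LUM thus passed 2-fold where the brightest did not. The list's medians were −0.40 at the ISC level and −0.65 at the fused levels.

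Proteases that cut collagen and their inhibitors had 11 named genes of 20, of which 7 were measured in each comparison with the matched control. At the ISC level 3 of 7 were at least 2-fold higher and 0 lower, beside 9.09% of all genes or transcripts higher, with a list median of 0.67. The 3 were MMP13, a collagenase, at 2.25, CTSK, cathepsin K, at 1.27 and the inhibitor TIMP1 at 1.05. MMP13 was read by 1 measured probe of 3. Against the adjacent-level control the ISC level was at 0.45 in MMP13, 0.37 in CTSK and 0.03 in TIMP1. None of the 3 was thus 2-fold higher than that control. Between the controls, L3/4 was at −1.80, −0.90 and −1.01 in the same order. At the fused levels 1 of 7 was higher, the inhibitor TIMP4, beside 7.84% of genes or transcripts, and 1 lower, TIMP1, with a median of −0.41. Against the L3/4 control the fused levels were at −0.25 in TIMP1, and TIMP4 was not well above background in that control. TIMP3, an inhibitor bound to the matrix, was at 0.67 at the ISC level and −0.41 at the fused levels, and MMP3, stromelysin, at −0.44 and −0.34. MMP14, a membrane collagenase, was not well above background on any array, and MMP9 and MMP12 were not in either control.

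The collagen receptor list had 1 measured gene of 13, ITGB1, the beta-1 chain of collagen-binding integrins, at 0.28 for the ISC level and −0.18 for the fused levels. ITGA10, the alpha-10 chain, was well above background at the ISC level only. Of the cartilage list 2 of 22 were measured. PTH1R, the receptor of parathyroid hormone, was at −2.28 and CNMD at −1.01 at the fused levels, where both were at least 2-fold lower, beside 9.15% of all genes or transcripts. Set against the L3/4 control, they were at −0.58 and −0.87. Of the list of TGF-beta signalling and collagen transcription 2 of 22 were measured. TGFB2, a ligand, was 1.27 higher at the ISC level and at −0.96 at the fused levels, while TGFBR2, a receptor, was at 0.56 and 0.03. These values depended on the control array. With the controls exchanged, TGFB2 was at 0.22 at the ISC level and 0.09 at the fused levels, and TGFBR2 at −0.14 and 0.73. The medians were −0.11 and −1.64 for the cartilage list and 0.91 and −0.46 for the TGF-beta list, at the ISC level and at the fused levels.

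Genes with the most similar profile were sought among 884 named genes well above background on all 4 arrays, by the Euclidean distance between the 4 scaled levels, each gene centred on its own mean. For the brightest COL1A2 probe the nearest were SLC8A1 at a distance of 0.046, PFKP at 0.12, PAK2 at 0.15, CYP2C2 at 0.15 and APP at 0.18, where the median gene lay at 1.10. With the mean of the 11 COL1A2 probes they were ENPP1 at 0.070, TGFB2 at 0.23, CTSK at 0.23, APP at 0.25 and SLC8A1 at 0.26. For COL8A1 they were MGP, matrix Gla protein, at 0.59, STEAP2 at 0.76, BGN at 0.88, UGGT2 at 0.89 and CDK14 at 0.91, where the median gene lay at 2.12. The COL8A1 distances were all larger than those of COL1A2, but a distance of this kind depends on how widely a profile spreads. Around its mean, COL8A1 ran from −1.53 to 1.34 and the brightest COL1A2 probe from −0.43 to 0.56. The distances therefore do not show that the COL8A1 pattern was less shared. Profiles of 4 arrays without replicates are a thin basis for likeness.

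The neighbours of COL2A1 changed entirely with the probes used. For the brightest probe they were SLC13A2 at 0.061, TERF2IP at 0.11, POLR3K at 0.15, SLC38A5 at 0.16 and ICAM5 at 0.16, at a median of 0.82 over genes. For the mean of the 5 probes they were CA5B at 0.76, COQ3 at 0.98, STEAP1 at 1.03, BGN at 1.17 and RGS4 at 1.20, at a median of 2.51. None of the 5 names was shared.

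**Figure D4:**
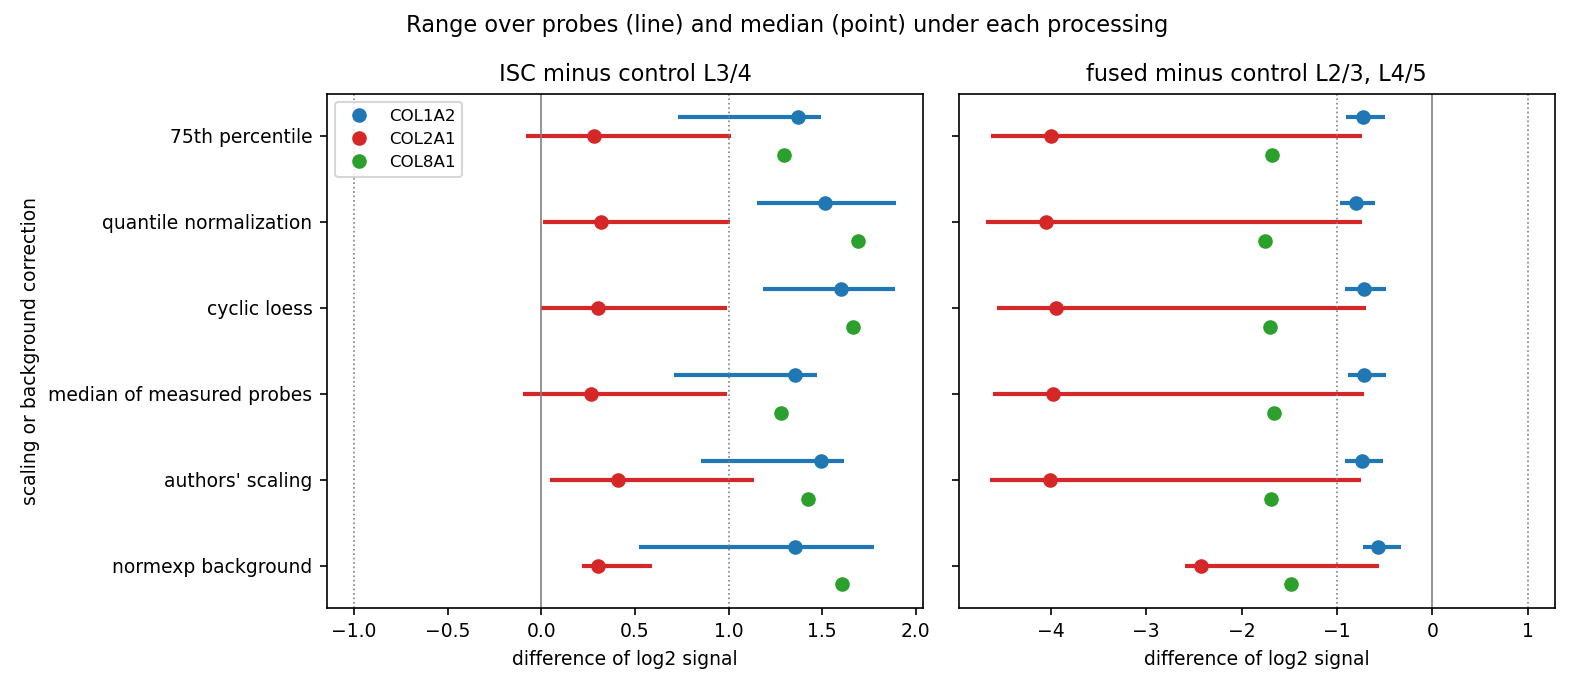
Difference of log2 signal (x axis) for the ISC level against the L3/4 control (left) and the fused levels against the adjacent-level control (right) under 6 kinds of scaling or background correction (y axis); points are medians and lines ranges over the measured probes, and dotted lines mark 2-fold. The median of COL2A1 at the fused levels was −4.00 with the 75th percentile and −2.42 after normexp background correction, and the COL1A2 median at the ISC level lay between 1.35 and 1.60.

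The scaling of the arrays moved the sizes more than the directions. For the ISC level against the L3/4 control, all 11 COL1A2 probes were past 2-fold under quantile normalization and under cyclic loess, against 8 with the 75th percentile and 7 when centred on the median of measured probes. The 4 COL2A1 probes other than the brightest stayed past 2-fold lower in the fused array under all 6, although normexp, which adds an offset of 50 to every signal, brought the lowest from −4.63 to −2.60. COL8A1 was between 1.28 and 1.69 at the ISC level and between −1.76 and −1.48 at the fused levels.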

How the data were processed

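Cy3-labelled cDNA made from total RNA was hybridised to single-colour Agilent rabbit arrays, 1 per group. The submitters' processing notes name Feature Extraction, version 12.0.3. The deposited intensity values are Feature Extraction's processed signals, per the file headers. For this report log2 was taken, spots of 1 probe were averaged, each array's 75th percentile was subtracted, and 3 to 7 outlier spots per array were left out. The authors' deposited value table equals these intensities times 1 factor per array, and its medians are 515.5 for ISC, 442.3 for the L3/4 control, 498.4 for fused and 504.0 for the adjacent-level control. How those factors were chosen is not stated.

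RefSeq accessions named 3792 probes through a table of assembly mOryCun1.1. The array design is of another build, oryCun2, so no coordinates are given. A gene is represented by its brightest probe over the 4 arrays and every collagen probe is reported. Differences of at least 2-fold are counted without a test, and the number of arrays limits precision. Alternatives, run with limma 3.58.1, R 4.3.3 and Python 3.11.15, were quantile and cyclic loess normalization, centring on measured probes, the authors' scaling, normexp, other probe rules, other controls, other filters on dim features and other folds. The code was tested on simulated data. Named were the 3 genes, up to 3 highest and lowest measured genes per list, the 2 brightest markers of a list, and 5 nearest profiles, with some left out for length. Members and lists were chosen with earlier results of these data known.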

Additional observations from a re-analysis of the deposited data

Results flagged for a closer look

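The ISC level and the fused levels, each against the control of the same lumbar levels, differed in opposite directions for all 3 genes when the median over measured probes is taken, with 1 array each. None of these contrasts was tested. For COL1A2 the gap between the 2 differences was 1.51 by the brightest probe, from 0.89 and −0.62, and 2.10 by the median over probes, from 1.37 and −0.73. For COL8A1 it was 2.98, from 1.30 and −1.68. For COL2A1 it was 4.28 by the median over probes, from 0.28 and −4.00. By its brightest probe COL2A1 was at −0.08 and −0.73, and the first of these was above 0 under quantile normalization, the authors' scaling and normexp. The 2 differences use 4 different arrays, and the controls of COL1A2 and COL2A1 were themselves apart. With the controls exchanged, the medians at the ISC level and at the fused levels were 0.43 and 0.15 for COL1A2. They were −1.22 and −2.47 for COL2A1, so neither gene then differed in opposite directions. COL8A1, at 1.19 and −1.58, still did.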

How the results depend on the processing

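Each group was 1 array, so nothing here measures the spread between animals, and dim probes limit COL2A1 most. No paired analysis was possible because each group held 1 array and no test was run. Of 108 alternative log2 values for the 3 genes, 61 moved by less than the typical spread between probes of a transcript and 47 by more. A change of sign was counted only where the main value was at least 2-fold, and 0 such values changed sign. No main value of COL1A2 or COL2A1 was that large. For COL2A1 at the ISC level against the L3/4 control, 5 of 12 alternatives kept the sign. Every alternative kept it for the other differences of the 3 genes. The causes were not tested.

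Values are given for the ISC level minus the L3/4 control unless another pair is named. COL1A2, 0.89 by its brightest probe, was 1.43 with quantile normalization, 1.53 with cyclic loess, 1.25 with normexp, 1.18 as the mean over probes, 1.37 as the median and 1.49 by the highest probe. Against the adjacent-level control it was 0.37 and against the mean of both 0.63. COL2A1, −0.08, was 0.22 with normexp, 0.32 as the mean, 0.28 as the median, 1.01 by the highest probe and 0.42 without the brightest, an alternative chosen after seeing the data. COL8A1, 1.30, was 1.69 with quantile, 1.67 with loess and 1.60 with normexp.

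For the fused levels minus the adjacent-level control, COL1A2, −0.62, was −0.90 by the lowest probe, −0.10 against the L3/4 control and −0.36 against the mean of both. COL2A1, −0.73, was −0.56 with normexp, −3.44 as the mean, −4.00 as the median, −4.63 by the lowest probe and −4.11 without the brightest. COL8A1, −1.68, was −1.48 with normexp.

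Between the controls, COL1A2, −0.52, was −0.85 with quantile, −1.04 with loess, −0.77 with normexp, −0.75 as the mean, −0.91 as the median and −1.10 and −0.26 by the lowest and highest probes. COL2A1, −0.14, was −1.33 as the mean and as the median, −2.46 by the lowest probe and −1.63 without the brightest. COL8A1, −0.10, was −0.36 with quantile, −0.45 with loess and −0.31 with normexp.

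For the ISC level minus the fused levels, a comparison also added after seeing the data, COL1A2, 0.99, was 1.21 with quantile, 1.19 as the median and 1.29 by the highest probe. COL2A1, 0.52, was 2.43 as the mean, 2.84 as the median, 3.18 by the highest probe and 2.91 without the brightest. COL8A1, 2.87, was 3.09 with quantile.

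Genes or transcripts at least 2-fold apart numbered 2688 at the ISC level, 2330 in the fused array and 2310 between the controls. With normexp they numbered 523, 705 and 419, with a signal above background asked of 1 array 4656, 4033 and 4218, and with no filter 5897, 5169 and 5559. At 1.5-fold they numbered 6094, 5060 and 5122 and at 3-fold 801, 963 and 764. The share that was higher at the ISC level was 46.4%, against 58.9% with the authors' scaling, which moved the median over all from −0.16 to −0.04, and 66.3% with normexp. At the fused levels it was 46.1% against 62.1% with normexp, and between the controls 47.7% against 33.4%. Of the 3 collagen genes, 1 was at least 2-fold apart at the ISC level and 2 with quantile, loess, the authors' scaling, normexp or the mean over probes. At the fused levels 1 was, and 2 with the mean over probes. Between the controls 0 were, and 1 with loess or with the mean over probes.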
